A study of Rattus norvegicus with 8 samples.

Results

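The neuropeptides of the hippocampus were described through 9 genes, Npy, Gal, Sst, Vip, Cck, Adcyap1, Pdyn, Tac1 and Crh, taken by gene name. They had 11 of the 41012 probes on each array, and the arrays carried 18361 distinct gene symbols in all. Adcyap1 had 3 probes and each of the other genes had 1.

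The study asked how neurons of the CA3 subfield of the rat hippocampus that were dying after a traumatic brain injury differed from neighbouring neurons that survived. Male Sprague-Dawley rats received moderate fluid percussion injury, a sham operation or no treatment (naive), brains were taken 24 hours later, and CA3 neurons were cut out of frozen sections by laser capture microdissection. In injured rats, neurons stained by Fluoro-Jade, a dye for degenerating neurons, made the dying group, and unstained neurons next to them made the surviving group. RNA of each pool was amplified, labelled and hybridized to a one-colour Agilent whole-genome rat array.

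There were 8 arrays in 4 groups of 2: naive, sham, surviving injured and dying injured. Each pool of injured neurons held about 600 cells from at least 3 rats, so a value is an average over cells and animals, and the labels give neither the age of the rats nor which of 2 amplification kits served which pool. The naive and sham arrays were on 1 slide and both injured groups on another, with a different scan and extraction protocol. Slide, scan, extraction protocol and injury therefore cannot be told apart in any comparison with controls. Surviving against dying, and sham against naive, were compared within a slide. The rats in both injured groups carried the injury, and the sham rats carried the operation without it.

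Neuropeptides are made as larger precursors, cut and modified inside dense-core vesicles and released alongside classical transmitters, and they act on G protein-coupled receptors. In the hippocampus most of them mark classes of inhibitory interneurons, while pyramidal and granule cells carry a smaller set, among them Cck and Adcyap1 or Pdyn. Several peptide genes are known to respond to seizures, nerve injury and strong activity.

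Levels are log2 of the spot signal over the median of all probes on the same array, so 0 is the array's median. A probe counted as well above background when the extraction software marked it so. Array medians ran from 16.4 to 53.0 intensity units, and each array had between 20193 and 29347 of its 41012 probes well above background, more on each injured array than on any uninjured array. Replicate arrays correlated across the 15254 probes above background on all 8 arrays with r of 0.966 in naive, 0.985 in sham, 0.976 in surviving and 0.892 in dying, where probes are not independent replicates. The standard deviation (SD) of the difference between replicates was 1.21 log2 units in dying and 0.49 to 0.69 in the other groups, so the dying arrays stood furthest apart.

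All 9 genes passed this mark on all 8 arrays with at least 1 probe, while the brightest Adcyap1 probe did so on 7. Levels of different genes come from different probes and cannot be ranked against each other. Of the 11 probes, 7 were spotted 10 times on each array, and the SD over those spots had a median between 0.07 for Npy and 0.23 for Adcyap1, which measures the printing and scanning of 1 pool and not the spread between pools.

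Gal encodes galanin, a peptide that dampens transmitter release and is known for its induction in injured neurons. Its level was 1.77 and 1.81 in the naive pools, 2.18 and 1.62 in the sham pools, 5.71 and 5.73 in the surviving pools, and 7.64 and 7.61 in the dying pools. Both dying arrays lay above both surviving arrays, both surviving arrays lay above every control array, and naive and sham overlapped. The order of the group means was therefore dying, surviving, sham and naive, with the last pair closer to each other than the sham replicates were.

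Npy encodes neuropeptide Y, an inhibitory peptide of interneurons. Its level was 7.63 and 8.34 on the naive arrays, 7.99 and 8.56 on the sham arrays, 8.43 and 8.26 on the surviving arrays and 10.35 and 8.38 on the dying arrays. Only dying replicate 1 stood apart, and the other 7 arrays lay within 7.63 and 8.56. Cck, the cholecystokinin precursor gene, was at 10.05 and 10.63 for naive, 10.44 and 10.53 for sham, 10.92 and 11.04 for surviving and 12.28 and 10.55 for dying pools. Dying replicate 1 was again the highest, and both surviving arrays lay above all control arrays.

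Sst encodes somatostatin, the peptide of dendrite-targeting interneurons. Its level was 5.69 and 7.64 in the naive pools, 6.70 and 5.61 in the sham pools, 5.42 and 4.23 in the surviving pools, and 8.48 and 4.67 in the dying pools. The dying pools held the highest value and 1 of the 2 lowest, so they overlapped every other group. Vip, vasoactive intestinal peptide of interneurons that contact other interneurons, was at 7.12 and 6.15 on the naive arrays, 6.72 and 7.25 on the sham arrays, 5.25 and 3.89 on the surviving arrays and 7.83 and 5.54 on the dying arrays. The surviving arrays were below all 6 others, and the dying arrays lay on both sides of the controls.

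Tac1 encodes the precursor of substance P and neurokinin A. It stood at 3.97 and 3.62 for naive, 4.61 and 5.03 for sham, 2.16 and 3.46 for surviving and 4.52 and 1.54 for dying pools. Sham was above each other group, and the dying replicates spanned most of the range. Pdyn, the dynorphin precursor gene known from granule cells and their mossy fibres onto CA3, was at 4.48 and 6.32 in the naive pools, 6.13 and 5.09 in the sham pools, 3.88 and 4.48 in the surviving pools, and 5.75 and 2.54 in the dying pools. Sham and surviving did not overlap, and the dying replicates fell on either side of the surviving ones.

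Crh encodes corticotropin-releasing hormone, which interneurons of the pyramidal layer make. Its level was 0.78 and 1.57 on the naive arrays, 1.57 and 2.55 on the sham arrays, 0.29 and 0.19 on the surviving arrays and 1.12 and 1.35 on the dying arrays. The surviving arrays were the lowest, and the dying arrays lay within the naive range and below sham.

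**Figure D1:**
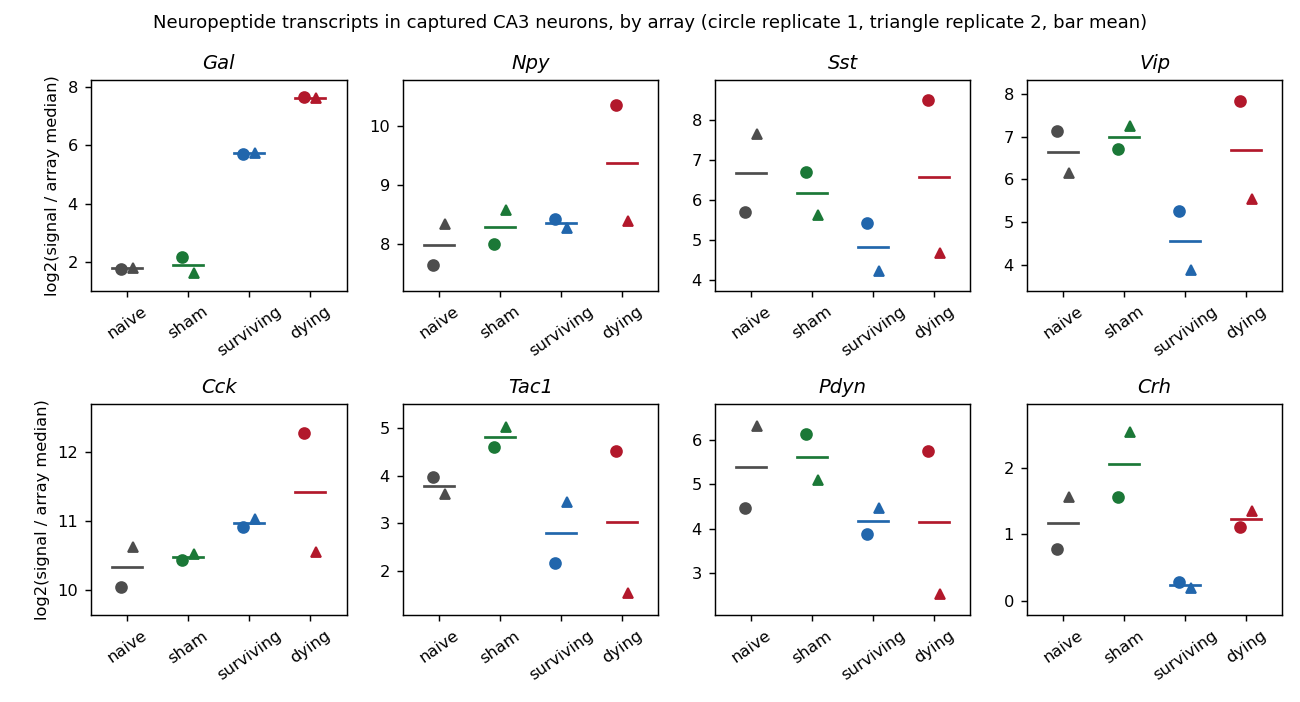
Level of 8 neuropeptide genes, 1 panel a gene, in 4 groups of captured neurons (y axis: log2 of signal over array median; circle replicate 1, triangle replicate 2, bar the group mean). Gal climbs from 1.62 to 2.18 in the controls to 5.71 and 5.73 in surviving and 7.64 and 7.61 in dying pools, while for Npy, Sst, Vip, Cck, Tac1 and Pdyn the dying replicates lie far apart.

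Adcyap1 encodes PACAP, a peptide that raises cAMP and is known to protect neurons. Its brightest probe, A_44_P522701, read 2.40 and 3.16 for naive, 2.80 and 2.24 for sham, 1.55 and 1.55 for surviving and 3.06 and -1.84 for dying pools. The last value was not above background, so the dying replicates differed by more than all other arrays together. The probe spotted 10 times, A_44_P240731, read 0.76 and 1.58 in the naive pools, 2.07 and 1.98 in the sham pools, 0.10 and 0.36 in the surviving pools, and -2.33 and -3.46 in the dying pools, where neither array was above background. On this probe the groups fell in the order sham, naive, surviving and dying without overlap. The remaining probe, A_44_P142168, read -0.23 and 0.74 on the naive arrays, 0.49 and 0.44 on the sham arrays, 1.88 and 1.71 on the surviving arrays and 2.24 and 1.38 on the dying arrays, with every injured array above every control array. The probes of this gene thus went different ways, and the files do not give the place of each probe on the transcript.

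**Figure D2:**
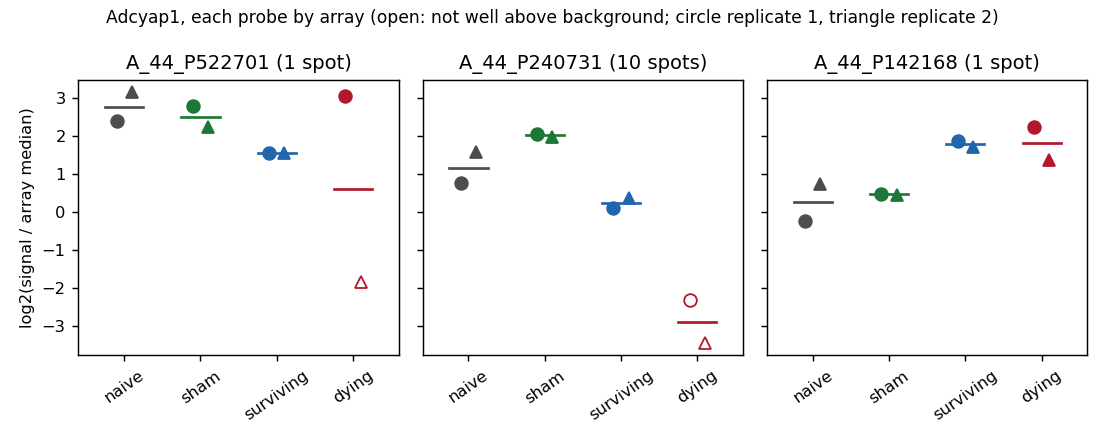
Level of each Adcyap1 probe by array, 1 panel a probe (y axis: log2 of signal over array median; open symbols: not well above background; circle replicate 1, triangle replicate 2, bar the group mean). The probe spotted 10 times falls to -2.33 and -3.46 in dying pools, while A_44_P142168 is at 1.38 to 2.24 on the injured arrays and at -0.23 to 0.74 on the controls.

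The captured material carried the markers of its label. All 8 pyramidal neuron genes with a probe, of 10 listed, were well above background on 7 of the arrays, and 7 of them were on dying replicate 1, where Grik4 was not. Their summed signal over the array median was 5820 and 8856 for naive, 11667 and 10160 for sham, 6562 and 6233 for surviving and 3125 and 3560 for dying pools, and the probe of Nrgn gave the largest part of each sum. Of the 8 genes, 1 was called lower than sham in surviving neurons, where 11.3% of all probes tested were called lower and 6.48% higher. In dying neurons 3 of the 8 were called lower, where 28.6% of all probes were called lower and 14.7% higher. The median difference of the list was -2.20 against -0.47 for all probes. The dying arrays were unlike on this list: its median level was 2.83 on replicate 1 and 6.06 on replicate 2, against 6.08 and 6.34 in sham. A gene dim in 1 group enters a test only through the group where it is bright, so counts and medians over a list are descriptions.

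Markers of other cells were present too. Of 10 interneuron genes, 6 to 8 were above background on each array, Lhx6 and Nos1 on 0 arrays, and the probe of Pvalb gave the largest part of each sum. Their summed signal was 212 and 295 in the naive pools, 303 and 338 in the sham pools, 116 and 150 in the surviving pools, and 182 and 123 in the dying pools, so every injured array was below every control array, as both surviving arrays were for Vip. In surviving and in dying neurons 3 of the 8 interneuron genes tested were called lower than sham, against 11.3% and 28.6% of all probes, and 0 higher. In all injured against all uninjured pools 4 of 8 were called lower, among them Pvalb and Reln, against 25.9% of all probes, and 2 higher, Gad2 and Dlx1, against 17.6%. Gad2 was above background on 4 injured arrays and 0 controls, and Dlx1 read 0.27 to 1.53 on the controls and 1.78 to 2.92 on the injured arrays. Because each array averages a pool, fewer cells of a type and less RNA per cell cannot be told apart. For 8 microglial genes the sum was 106 and 233 on the naive arrays, 243 and 218 on the sham arrays, 244 and 287 on the surviving arrays and 1508 and 888 on the dying arrays, with the largest part from C1qa or C1qb, and this sum was highest where Gal was highest. Of the microglial genes tested, 3 of 6 were called higher in dying neurons than in sham, against 14.7% of all probes. In surviving neurons 0 of 7 were called by limma and 2 had an unadjusted p under 0.05, as did 9774 of all 26917 probes.

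Of the 5 dentate granule cell genes, whose cells are a known source of Pdyn, Calb1 gave the largest part of the summed signal on each array and Prox1 was above background on 0 arrays. The granule cell sum was 20.1 to 38.8 in the controls, 3.25 and 6.99 in surviving, and 23.5 and 4.99 in dying pools, and like Pdyn it was higher in dying replicate 1 than in replicate 2. Except on surviving replicate 1, this sum is mostly the level of Calb1, and Tdo2 of the same list was above background on 4 injured arrays and 0 controls. For 6 astrocyte genes the sum ran from 409 to 1289, with the largest part from Slc1a3, and both surviving arrays and dying replicate 2 were below all controls. On those 3 arrays Gfap was above all controls, at 3.57 and 2.73 in surviving pools and 3.61 in dying replicate 2, against 1.35 to 2.10. For 6 oligodendrocyte genes, with the largest part from Olig1, it was 284 and 324 in surviving pools, 1016 and 570 in dying pools and 499 to 728 in the controls, so it was lowest in the surviving pools, as Vip and Crh were. The list medians were alike, -1.17 in surviving and -1.18 in dying neurons against sham, with 1 and 2 of 6 genes called lower, against 11.3% and 28.6% of all probes. For 5 endothelial genes, with the largest part from Vwf or Cldn5, it was 153 and 86.8 in dying pools and 27.0 to 47.2 on the other 6 arrays, and 2 of 4 genes tested were called higher in dying neurons than in sham, against 14.7% of all probes. Each sham array had 2 of these genes above background and each dying array 4, so some entered this test only through the dying arrays. The part of these cells in the results on peptides was not tested.

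Promoters of the members were read from RefSeq (build GRCr8), because cAMP signalling through the response element TGACGTCA is the known route by which several neuropeptide genes are switched on. The table held 7 of the 9 members, without Cck and Crh, and gave 250 bases before and 50 after the annotated start. The full element of 8 letters, which reads the same on both strands, was before the start in 0 of the 7 members and in 1.59% of all 33469 promoters; Sst held it within the 50 bases after its annotated start. Its 5-letter core, TGACG or CGTCA on the other strand, was before the start in 3 members, Gal, Vip and Tac1, and in 18.2% of all promoters. Gal is shown whole because it is the member that passed the test in both injured groups, and Vip and Tac1 are shown as the other 2 with a match; capitals mark the core. Gal lies at chr1:210084573-210084822 on the minus strand with the core beginning 63 bases before the start, Vip at chr1:44470356-44470415 on the plus strand with the core at 97, and Tac1 at chr4:36645350-36645409 on the plus strand with the core at 206. A match is a description of the letters and not of a bound site.
Gal: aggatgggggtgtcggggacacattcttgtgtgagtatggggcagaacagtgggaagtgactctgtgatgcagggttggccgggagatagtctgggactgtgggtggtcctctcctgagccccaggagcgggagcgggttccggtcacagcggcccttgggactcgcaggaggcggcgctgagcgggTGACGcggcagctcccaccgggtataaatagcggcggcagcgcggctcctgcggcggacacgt
Vip: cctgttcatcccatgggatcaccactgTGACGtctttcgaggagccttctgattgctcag
Tac1: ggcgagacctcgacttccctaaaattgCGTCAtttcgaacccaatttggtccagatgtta

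Surviving neurons were compared with sham neurons to ask what injury did to cells that lived through it. Gal rose 14.2-fold, by 3.83 log2 units (SE 0.44, 95% interval 2.81 to 4.84, n = 2 and 2, limma adjusted p = 0.00292), and it was higher in 2 of 2 surviving pools. It ranked 200 by p among 26917 probes tested. Crh fell by 1.82 log2 units (SE 0.53, interval -3.03 to -0.61, adjusted p = 0.0484) to levels near the array median, in 2 of 2 pools.

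The remaining 7 members did not pass. Vip differed by -2.42 (adjusted p = 0.0764), Tac1 by -2.01 (0.153), Pdyn by -1.43 (0.352) and Sst by -1.33 (0.450), and in each of these 4 genes both surviving arrays were below both sham arrays. Npy differed by 0.07 with an interval of -1.50 to 1.64, and Cck by 0.49 with an interval of -0.93 to 1.92. The brightest Adcyap1 probe differed by -0.97 (adjusted p = 0.619), the probe spotted 10 times by -1.80 (0.0551) and the last by 1.33 (0.111).

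Thus 2 of 9 genes were called, where 17.8% of all probes tested were. Lower by 2-fold or more without overlap were 5 of 9 genes, against 32.3% of all probes, and higher was 1 gene, against 20.4%. The median difference of all probes was -0.43 and that of the members -1.33. This median moved to 0.35 with scaling to the 75th percentile, to 0.18 with quantile normalization and to 0.55 with scaling to the probes above background on all arrays, so values near 0 take their sign from the scaling. Relative to the median of all probes, Gal was 4.25 higher and Crh 1.39 lower.

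The call of Gal was lost with normexp background correction (3.93, adjusted p = 0.507), and its difference lay between 3.55 and 4.80 over 15 alternatives. The call of Crh was lost in 11 of 15 alternatives, among them scaling to the 75th percentile (-1.04, adjusted p = 0.153) and quantile normalization (-1.52, 0.0638), although its difference stayed negative, from -2.31 to -0.59. Fitted on the surviving and sham arrays alone, where 45.3% of all probes were called, Vip (adjusted p = 0.0168), Tac1 (0.0244) and Pdyn (0.0496) also passed. So did both other Adcyap1 probes in opposite directions, the 10-spot probe as lower (0.00915) and A_44_P142168 as higher (0.0186). The 10-spot probe also passed with quantile normalization (-1.51, 0.0464) and a floor of 0.1 (0.0498), and A_44_P142168 at the 75th percentile (2.11, 0.0134) and with scaling to probes above background (2.31, 0.00781). Of all probes, 5.71% and 11.6% were called lower in the first 2 settings, and 15.4% and 19% higher in the last 2.

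Dying neurons were compared with sham neurons to ask how the cells that degenerated differed from the operated control. Gal rose 52.9-fold, by 5.73 log2 units (SE 0.44, interval 4.71 to 6.74, adjusted p = 3.61e-04), in 2 of 2 pools. Among all probes it had rank 48 of 25646 by p and rank 11 by size of increase. The Adcyap1 probe spotted 10 times was called lower (adjusted p = 0.00109), and since neither dying array was above background it is given as at least 13.4-fold lower. It entered this test through the sham arrays, and without the filter on dim probes its adjusted p was 0.00284.

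None of the other members was called by limma on its brightest probe. Npy differed by 1.09 with an interval of -0.46 to 2.64, Cck by 0.93 with an interval of -0.47 to 2.34, and Sst by 0.42 with an interval of -2.29 to 3.14. Vip differed by -0.30 (adjusted p = 0.776), a value that turned positive with scaling to the 75th percentile (0.42). Tac1 differed by -1.79 (adjusted p = 0.135), Pdyn by -1.47 (0.267) and Crh by -0.83 (0.220). The brightest Adcyap1 probe, above background on 1 of 2 dying arrays, had an adjusted p of 0.245. A_44_P142168 differed the other way, by 1.35 (0.0675), with both dying arrays above both sham arrays.

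So 1 of 9 genes was called, against 43.3% of all probes tested. In the 2-fold count without overlap, 1 gene was higher, against 25.7% of probes, and 1 was lower, Tac1, against 38.6%. The median difference of all probes was -0.47 and that of the members -0.30.

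Gal was called with either dying array left out, while the other members called differed with the array dropped. Without dying replicate 1, where 25.5% of all probes tested were called, Tac1 (-3.28, adjusted p = 0.0168) and Pdyn (-3.08, 0.0425) passed as lower than sham. The brightest Adcyap1 probe also passed then (adjusted p = 0.00676), but the dying array that remained was not above background, so no size is given. Without dying replicate 2, where 49% of all probes were called, Npy (2.08) and Cck (1.80) passed as higher. Npy and Cck also passed with both arrays kept under 3 other scalings, with values of 1.81 and 1.65 at the 75th percentile, 2.08 and 1.59 with quantile normalization, and 2.11 and 1.95 with scaling to probes above background on all arrays. In that order, 27.2%, 20.5% and 32.6% of all probes were called higher, and the median difference of all probes was 0.25, 0.21 and 0.55. A_44_P142168 of Adcyap1 passed as higher under the same 3 scalings (2.07, 1.57 and 2.36) and without dying replicate 2 (1.78). Gal was called in 14 of 15 alternatives, between 4.29 and 6.74, and lost its call with normexp (4.29, adjusted p = 0.518).

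**Figure D3:**
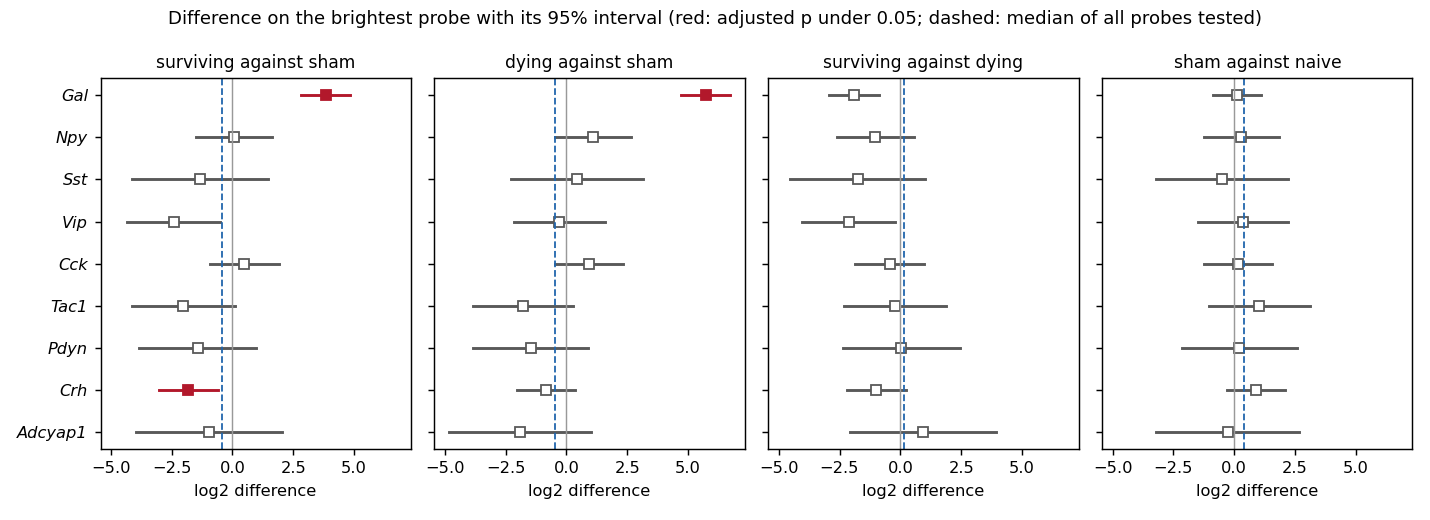
Difference of each gene on its brightest probe in 4 comparisons (x axis: log2 difference; bars: 95% interval from limma; red: adjusted p under 0.05; dashed line: median of all probes tested). Gal is at 3.83 and 5.73 against sham and Crh at -1.82 in surviving neurons, and no interval is drawn in red for surviving against dying or sham against naive.

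**Figure D4:**
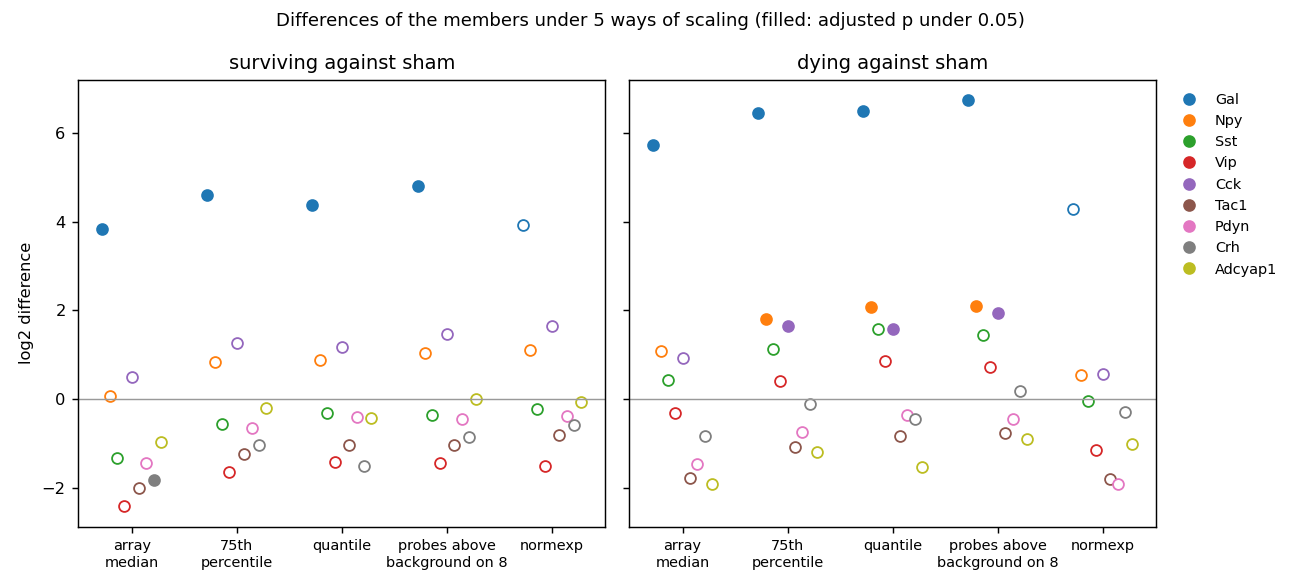
Differences of the 9 genes from sham under 5 ways of scaling or background correction (y axis: log2 difference; filled points: adjusted p under 0.05). Gal lies between 3.83 and 4.80 in surviving and between 4.29 and 6.74 in dying neurons, and it is unfilled only with normexp; Npy and Cck are filled in dying neurons under 3 of the scalings.

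Surviving and dying neurons of injured rats were compared within a slide, the study's central question. Gal differed by -1.90 log2 units, surviving minus dying (SE 0.45, interval -2.92 to -0.88), without overlap, and did not pass the correction (adjusted p = 0.118). Vip differed by -2.11 (adjusted p = 0.202), also without overlap. Crh was apart in the same direction with a difference of -0.99 (0.321). The 10-spot Adcyap1 probe read at least 3.86-fold higher in surviving neurons, with an adjusted p of 0.0937. The other Adcyap1 probes did not separate these groups: A_44_P142168 differed by -0.0133 (0.993), and the brightest probe, above background on 1 of 2 dying arrays, had an adjusted p of 0.716.

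With limma 0 of 9 genes and 0 of 27410 probes were called, a background of 0%, although 2 of the genes and 5766 probes had an unadjusted p under 0.05. Lower by 2-fold or more without overlap were 2 genes, Gal and Vip, against 14.7% of probes, and higher were 0 genes, against 17.2%. Sst differed by -1.75 with an interval of -4.53 to 1.02, Npy by -1.02 with an interval of -2.59 to 0.55, and Cck by -0.44 with an interval of -1.86 to 0.99. Pdyn and Tac1 were at 0.04 and -0.23, with intervals wider than 4 units. The median difference was 0.15 over all probes and -0.99 over the members.

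Without dying replicate 2, Sst (-3.66), Vip (-3.26), Npy (-2.01) and Gal (-1.91) were lower in surviving neurons. So were Tac1 (-1.72), Pdyn (-1.57), the brightest Adcyap1 probe (-1.51), Cck (-1.31) and Crh. These values rest on 1 dying array. The Adcyap1 probe A_44_P240731 went the other way. It read 0.10 and 0.36 in the surviving pools and -2.33 on dying replicate 1, where it was not above background, so no size is given. Without dying replicate 1, Sst stood at 0.15. The difference of Gal was -1.88 without dying replicate 1 and -1.91 without replicate 2, and with normexp it was -0.36.

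Sham and naive neurons were compared, within the other slide, to see what the operation itself did. The members lay close together in these 2 groups: 7 of them differed by -0.51 to 0.35 log2 units. Tac1 differed by 1.03 (SE 0.90, adjusted p = 0.851) and Crh by 0.89 (0.851). For Tac1 the groups were apart, and for Crh naive replicate 2 and sham replicate 1 met at 1.57. With limma 0 of 9 genes and 0 of 20680 probes (0%) were called, and 0 of the 9 and 1005 probes had an unadjusted p under 0.05. In the 2-fold count without overlap 1 gene was higher, against 7.77% of probes, and 0 were lower, against 1.89%. Gal differed by 0.11 with an interval of -0.88 to 1.09. The median was 0.41 over all probes, so relative to it Gal was at -0.30 and Tac1 at 0.62, and 5 members turned sign with quantile normalization.

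When both injured groups were set against both uninjured groups, Gal rose 28.4-fold, by 4.83 units (SE 0.32, interval 4.10 to 5.56, adjusted p = 1.04e-04), and was higher in 4 of 4 injured pools. It was the only brightest-probe call among 9 genes, against 43.5% of 28391 probes tested, and it was lost with normexp (4.22, adjusted p = 0.334). Npy and Cck passed as higher too under 3 other scalings. The values were 1.33 and 1.38 at the 75th percentile, 1.38 and 1.23 with quantile normalization, and 1.49 and 1.55 with scaling to probes above background. Under these scalings 28.4%, 21.9% and 32.5% of all probes were called higher. Both genes were also higher without dying replicate 2. Without dying replicate 1, Vip differed by -1.76, Tac1 by -2.13 and Pdyn by -2.15, and the brightest Adcyap1 probe was lower too. With all 11 probes counted, 3 were called, and both others belonged to Adcyap1: the 10-spot probe was called lower (adjusted p = 0.00121), with no size given because 2 of the 4 injured arrays were not above background, and A_44_P142168 rose by 1.44 (0.0166). Both lost their calls with normexp, and the latter also without either surviving or either sham array. In the 2-fold count 1 gene was higher, against 14.2% of probes, and 0 were lower, against 20.7%. Vip differed by -1.18 (adjusted p = 0.136), Tac1 by -1.39 (0.117), Pdyn by -1.34 (0.175) and Crh by -0.88 (0.0898). The other brightest probes had adjusted p between 0.179 and 0.526. The comparisons share arrays, so their values stand side by side only.

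The receptors of these peptides came next, from a list of 26 genes that all had a probe. Genes of the lists were read on their brightest probe alone. Among those named, Npy1r, Pcsk1, Pcsk2, Chga, Nxph1, Calca and Avp had 2 probes and Scg3 had 3. Their other probes are not given here, so such a call is that of a probe. Against sham, surviving neurons had 3 lower and 1 higher call among 19 tested, where 11.3% of all probes were called lower and 6.48% higher. Of the receptors for neuropeptide Y, Npy1r fell by 3.76 (SE 0.46, adjusted p = 0.00358) and Npy5r by 2.30 (0.0153), while Npy4r did not pass (0.169) and Npy2r was above background on 0 arrays. Lower too was the somatostatin receptor Sstr1, by 2.27 (0.0274). The gene called higher, named after its values were seen, was Crhr2, a receptor for corticotropin-releasing hormone and urocortins, which no sham array detected, at least 2.32-fold higher (adjusted p = 0.0344, and 0.0495 without the filter on dim probes). The list median was -0.10, against -0.43 for all probes.

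In dying neurons 5 receptors of 18 tested were called lower than sham and 1 higher, where 28.6% of all probes were called lower and 14.7% higher, so the lower share was near that of all probes. Npy5r fell by 3.02 (SE 0.44, adjusted p = 0.00254), Npy1r by 2.69 (0.00399), the delta opioid receptor gene Oprd1 by 2.49 (0.00768), the cholecystokinin receptor gene Cckbr by 2.64 (0.0415) and Sstr1 by 1.64 (0.0372). Crhr2 was at least 2.65-fold higher (0.0116), and the list median was -1.18 against -0.47 for all probes. Npy1r stood at 3.35 and 3.01 for naive, 3.78 and 3.31 for sham, -0.15 and -0.28 for surviving and 0.62 and 1.09 for dying pools, so every injured array was below every control array. Among the galanin receptors, Galr1 was above background on 4 of 8 arrays, Galr2 on 7 and Galr3 on 4. In surviving against dying neurons 0 of 20 receptors were called by limma and 2 had an unadjusted p under 0.05, as did 5766 of all 27410 probes. In sham against naive 0 of 15 were called and 2 had an unadjusted p under 0.05, as did 1005 of all 20680 probes.

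Enzymes that cut and modify the precursors, and granins and other proteins of dense-core vesicles, made a list of 18 genes, 16 with a probe. Dying neurons had 9 of 15 tested genes called lower than sham and 0 higher, where 28.6% of all probes were called lower, and the list median was -1.88 against -0.47 for all probes. The pyramidal neuron genes lay on the same side in this comparison, with a median of -2.20 and a lower level on dying replicate 1 than on replicate 2. Of these genes 6 of 8 were lower by 2-fold or more without overlap, against 38.6% of all probes. The part of the pyramidal neuron genes was not tested. The prohormone convertases fell, Pcsk1 by 3.81 (SE 0.55, adjusted p = 0.00243) and Pcsk2 by 3.45 (0.00445), as did carboxypeptidase E, Cpe, by 3.04 (0.00728), and the amidating enzyme Pam by 2.79 (0.00534). Of the granins and vesicle proteins, Ptprn fell by 3.13 (0.00610), Chga by 2.63 (0.00350), Cadps by 1.82 (0.0154) and Scg3 by 1.73 (0.0470). Chgb fell by 1.88 (0.0481), resting on 1 dying array because its spots on the other were marked non-uniform, so the other groups give its spread. With those spots kept its adjusted p was 0.0157.

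Pcsk2 read 7.32 and 8.12 in the naive pools, 8.38 and 7.85 in the sham pools, 7.27 and 6.52 in the surviving pools, and no more than 5.34 in the dying pools, so both dying arrays were the lowest. In surviving neurons 3 of 16 processing genes were called lower than sham, where 11.3% of all probes were, Chga by 2.29 (adjusted p = 0.0146), Pcsk1 by 2.02 (0.0411) and Chgb by 2.49 (0.0427, 1 surviving array), 0 were higher, and the list median was -1.18. Between surviving and dying neurons 0 of 15 were called by limma and 5 had an unadjusted p under 0.05, as did 5766 of all 27410 probes. Pcsk2 differed by 2.23 (adjusted p = 0.132), Pcsk1 by 1.79 (0.145) and Ptprn by 1.80 (0.165). The list median there was 0.69 against 0.15 for all probes, beside 1.51 for the pyramidal neuron genes. Of the pyramidal genes 5 of 8 were higher by 2-fold or more without overlap, against 17.2% of all probes. Their median level was 7.08 and 6.39 in surviving pools, 2.83 on dying replicate 1 and 6.06 on dying replicate 2. Sham against naive gave 0 of 15 calls and 0 at an unadjusted p under 0.05, where 1005 of all 20680 probes had one.

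Of the 9 processing calls in dying neurons, 7 were kept with scaling to the 75th percentile, 6 with quantile normalization, 6 with scaling to probes above background on all arrays and 0 with normexp, and all 9 differences were negative under each of these. Without sham replicate 1 the kept calls were 3, and without sham replicate 2 they were 6. Of the 3 processing calls in surviving neurons 1 was kept at the 75th percentile and 0 with quantile normalization, with normexp or without any 1 sham or surviving array. Of the 6 receptor calls in dying neurons 1 was kept without sham replicate 1, 2 without sham replicate 2 and 0 with normexp, and of the 4 in surviving neurons at most 1 was kept without any 1 array of either group. Over the lists of receptors, processing genes and other peptides, 74 calls were made in the 3 comparisons of injured with uninjured pools. Of these 56 were kept at the 75th percentile, 49 with quantile normalization, 51 with scaling to probes above background and 0 with normexp. Without sham replicate 1 or 2, 25 and 38 of the 74 were kept. Without surviving replicate 1 or 2, 25 of 47 and 20 of 45 calls that use those arrays were kept, and without dying replicate 1 or 2, 52 of 60 and 52 of 62.

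**Figure D5:**
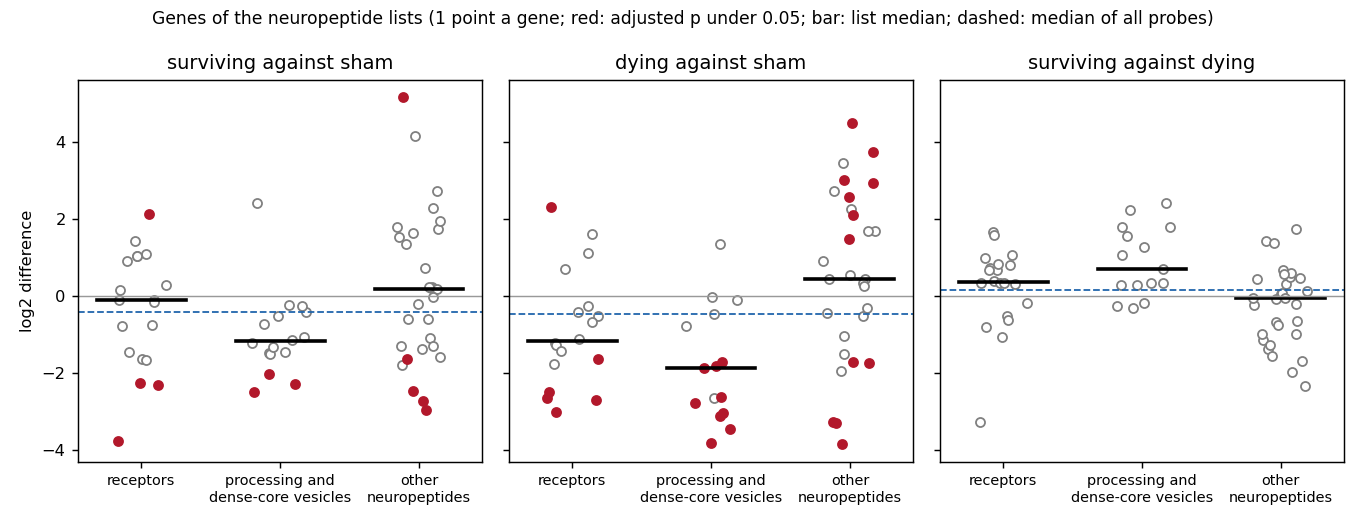
Differences of the genes of 3 lists in 3 comparisons (y axis: log2 difference; 1 point a gene on its brightest probe; red: adjusted p under 0.05; bar: list median; dashed line: median of all probes tested). Processing genes have a median of -1.18 in surviving and -1.88 in dying neurons against sham, and 9 of 15 are red in dying neurons.

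Other neuropeptide genes, 35 of 36 with a probe, had calls in both directions. In surviving neurons 4 of 29 were called lower than sham and 1 higher, near the 11.3% and 6.48% of all probes, with a list median of 0.18 against -0.43. Of these 5 calls 2 were kept at the 75th percentile, 2 with quantile normalization and 0 with normexp. They were lost when any 1 sham or surviving array was left out. Nxph1, a secreted ligand of neurexins, fell by 2.74 (SE 0.51, adjusted p = 0.0144), the C-type natriuretic peptide gene Nppc by 2.48 (0.0265), Cartpt, the gene of the cocaine- and amphetamine-regulated transcript, by 2.97 (0.0385), and the calcitonin gene Calca by 1.65 (0.0421). Thyrotropin-releasing hormone, Trh, named after its values were seen, was at least 15.7-fold higher (adjusted p = 0.0248, and 0.0375 without the filter) and was above background on 0 sham arrays. Its levels were 3.03 and -0.44 on the naive arrays, -2.27 and -0.55 on the sham arrays, 3.52 and 3.98 on the surviving arrays and 2.05 and 4.10 on the dying arrays, so naive replicate 1 overlapped the injured arrays.

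In dying neurons 5 of 29 were called lower than sham, against 28.6% of all probes, and 7 higher, against 14.7%, with a list median of 0.44 against -0.47. Of these 12 calls 9 were kept at the 75th percentile, 9 with quantile normalization and 0 with normexp, and most were lost without either sham array. Genes dim in sham entered this test only through the dying arrays. With probes above background on every array compared, 7 of the 12 calls could be tested, and the higher ones were Cort and Adm. In that setting 6.64% of all probes were called higher and 36.9% lower. Nppc fell by 3.86 (adjusted p = 0.00263), Nxph1 fell by 3.30 (0.00291), Cartpt by 3.28 (0.0123), Nucb2, the nesfatin gene, by 1.75 (0.0416) and Calca by 1.73 (0.0177). Cort, the cortistatin gene related to Sst, rose by 2.56 (SE 0.71, adjusted p = 0.0210), and Adm, the gene of the vasodilator adrenomedullin, by 2.10 (0.0213). In surviving against dying neurons 0 of 30 were called by limma and 6 had an unadjusted p under 0.05, as did 5766 of all 27410 probes. Cort was at -2.35 (adjusted p = 0.142) and Kiss1 at -1.97 (0.132). In sham against naive 0 of 21 were called and 2 had an unadjusted p under 0.05, as did 1005 of all 20680 probes. All injured pools against all uninjured pools, where 17.6% of all probes were called higher and 25.9% lower, gave 10 higher and 5 lower calls of 30 for these peptides, 5 and 5 of 20 for receptors, and 1 and 9 of 16 for processing genes, the 1 being Ptprn2, a vesicle membrane protein gene, at 2.03 (adjusted p = 0.0137). Genes dim on the uninjured arrays entered this test only through injured arrays. With probes above background on every array compared, 8 of 15 peptide calls, 5 of 10 receptor calls and 9 of 10 processing calls could be tested. In that setting 7.5% of all probes were called higher and 38.3% lower.

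The genes whose levels over the 8 arrays ran most alike to Cck, Npy and Vip, taken by the mean signal of their probes, which is no order of the genes, are given as a description, with no test, since the arrays fall into groups. Among 9162 named probes above background on all arrays, those most like Cck were LOC680843 (r = 0.989), C1qtnf4 (0.978) and the channel gene Hcn2 (0.977). Most like Npy were Ddt (0.977), LOC680493 (0.972) and Ptgis (0.966), and the last 2 dropped to 0.797 and 0.789 without dying replicate 1. Most like Vip were Tmsbl1 (0.931), Btg2 (0.930) and RGD1562294 (0.922), with 0.955, 0.908 and 0.893 without that array.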

How the data were processed

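Per the file headers, the authors scanned the arrays and extracted spots with Agilent Feature Extraction 9.1.3.1, which gave a background-subtracted, detrended intensity and other marks per spot (above background, non-uniform, saturated). The deposited series signal is that intensity divided by 1 constant per array, and it served as an alternative. Here the intensity was averaged over the uniform spots of a probe, divided by the array median over 41012 probes, floored at 0.01 and put on the log2 scale. limma 3.58.1 in R 4.3.3 fitted the 4 groups on all 8 arrays, with Benjamini-Hochberg adjustment over the probes that passed the background mark on each array of 1 or both groups compared. Adjusted p values are limma's, two-sided, called under 0.05. Where no array of a group was above background, the fold is a bound against the dimmest signal above background. Named were all member probes, list genes called, or the 3 of smallest p, if above background on every array compared, and the 3 genes most like each of the 3 brightest members. Some genes were named outside this rule, among them Chgb, Crhr2, Trh and Npy4r. The members and lists were chosen with earlier results of these data known. Figures used Python 3.11.15 with matplotlib 3.10.9.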

Additional observations from a re-analysis of the deposited data

How the results depend on the processing

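Gal kept its direction against sham, and in injured against uninjured pools, under every alternative run, and its calls were lost only with normexp. The alternatives were scaling to the 75th percentile, quantile normalization, normexp on local background, a floor of 0.1, non-uniform spots kept, the deposited series values, no filter on dim probes, probes above background on every array compared, a replicate block, a fit on only the arrays compared, leaving out each array, and, for Adcyap1, the mean over its probes. Scaling by the probes above background on all 8 arrays was chosen after seeing the data. Crh in surviving against sham lost its call in 11 of 15.

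The share of calls that were higher moved with scaling, filter and arrays. In surviving against sham it was 36.4%, 73.0% at the 75th percentile, 59.3% with quantile normalization, 80.0% with scaling by probes above background on all arrays and 28.5% without the filter. In dying against sham these were 33.9%, 59.2%, 56.3%, 68.6% and 28.7%, and in injured against uninjured 40.5%, 64.4%, 57.9%, 71.0% and 30.9%. With only probes above background on every array compared they were 6.21%, 15.3% and 16.4%. With 1 array left out, surviving against sham had 5.54% to 12.0%, dying against sham 24.4% to 40.5% and injured against uninjured 37.9% to 43.4%. The cause was not tested.

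Members that turned sign were these. At the 75th percentile: Vip, dying against sham, 0.42; sham against naive, Cck -0.15, Npy -0.00443, Pdyn -0.0877 and Gal -0.19. With quantile normalization: Pdyn, surviving against dying, -0.0422; Vip, dying against sham, 0.86; sham against naive, Cck -0.32, Npy -0.20, Vip -0.13, Pdyn -0.26 and Gal -0.0823; Sst, injured against uninjured, 0.13. With normexp: surviving against dying, Cck 1.08, Npy 0.56 and Tac1 0.99; Sst, dying against sham, -0.0321; sham against naive, Sst 0.37 and Adcyap1 0.0271; injured against uninjured, Sst 0.0519 and the receptor gene Galr1 -0.0265. With scaling by probes above background on all arrays: Pdyn, surviving against dying, -0.00529; Adcyap1, surviving against sham, 0.00792; dying against sham, Vip 0.71 and Crh 0.19; sham against naive, Cck -0.31, Npy -0.16, Vip -0.11, Pdyn -0.25 and Gal -0.35; Sst, injured against uninjured, 0.0559. The mean over the Adcyap1 probes in sham against naive was 0.26. The Adcyap1 probe A_44_P142168 in surviving against dying was 0.0437, 0.0616 and 0.60 at the 75th percentile, with quantile normalization and with normexp; in sham against naive it was -0.0932 at the 75th percentile, -0.0338 with normexp and -0.25 with scaling by probes above background. The cause was not tested.

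With 1 array left out, the lone array of its group is assumed to vary like the others. Surviving against dying then ranged from -1.72 to 1.26 for Tac1, -1.57 to 1.64 for Pdyn, -1.31 to 0.43 for Cck, -3.66 to 0.15 for Sst, -1.51 to 3.39 for Adcyap1 and -0.44 to 0.42 for its probe A_44_P142168, each with the low value without dying replicate 2 and the high value without dying replicate 1. Npy in surviving against sham ranged from -0.22 to 0.36. In dying against sham the ranges were -1.49 to 2.33 for Sst, -1.45 to 0.85 for Vip, -3.08 to 0.14 for Pdyn and -4.36 to 0.54 for Adcyap1, low without dying replicate 1 and high without dying replicate 2. The brightest Adcyap1 probe was not above background on dying replicate 2, so its values of 3.39 and -4.36 give a direction and no size. In sham against naive they were -0.71 to 1.13 for Pdyn, -0.17 to 0.39 for Gal, -1.49 to 0.47 for Sst, -0.64 to 0.12 for Adcyap1, -0.28 to 0.69 for A_44_P142168, -0.14 to 0.44 for Cck, -0.0594 to 0.65 for Npy and -0.13 to 0.84 for Vip. Sst in injured against uninjured ranged from -1.66 to 0.24.

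Counts of probes called moved with these choices. Normexp gave 0 in surviving against sham, 0 in dying against sham and 0 in injured against uninjured. Probes above background on every array compared gave 2865, 7039 and 6993, as fewer probes were tested. Only the arrays compared gave 12188 in surviving against sham and 292 in sham against naive, and quantile normalization gave 1 in sham against naive. With 1 array left out the counts ran from 0 to 5636 (without dying replicate 2) in surviving against dying, 289 (without sham replicate 1) to 527 (without sham replicate 2) in surviving against sham with 361 without either surviving array, 2986 (without sham replicate 1) to 13110 in dying against sham with 4983 without sham replicate 2 and 7381 without dying replicate 1, and 7693 (without surviving replicate 2) to 14367 in injured against uninjured with 7770 without sham replicate 1. Counts of probes 2-fold apart without overlap were 4476, 6590 and 820 with normexp in surviving against sham, dying against sham and injured against uninjured; 8621, 9465, 1231 and 4907 with probes above background on every array in those 2 comparisons with sham, sham against naive and injured against uninjured; 22437 and 4029 without the filter in surviving against sham and sham against naive; and 1215 with quantile normalization in sham against naive. With 1 array left out they ran from 8633 to 15022 (without dying replicate 2) in surviving against dying and from 2970 to 7262 (without naive replicate 2) in sham against naive, with 3933 without sham replicate 2 and 4407 without naive replicate 1. The cause was not tested.

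A replicate block gave 0 calls in surviving against dying and in sham against naive, 3359 and 10334 in surviving and dying neurons against sham, and 11670 in injured against uninjured, and Crh in surviving against sham had an adjusted p of 0.0649. The labels do not say that replicate numbers pair samples, and deviations of replicates correlated between groups at -0.19 to 0.07 over 15254 probes, so no pairing shows.

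There were 2 pools a group, 4 residual degrees of freedom and no repeat of an injured group on the slide of the controls, so the number of arrays limits the precision. Array medians of 16.4 to 53.0 units, beside local background medians of 52 to 60.5, limit what dim probes such as Crh and Adcyap1 can show. Most members are read by 1 probe, the probes of Adcyap1 differed in direction, and the arrays measure transcripts and not peptides. The neurons were captured by stain and place, and markers of glia and interneurons were present in every pool.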

Other observations

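Peptides known from the hypothalamus were read on these arrays as well. Avp, the vasopressin gene, was at 2.44 and 2.29 for naive, 3.04 and 3.20 for sham, 4.40 and 7.29 for surviving and 5.90 and 4.87 for dying pools, with each injured array above each control array; over all injured and uninjured pools it rose by 2.87 (SE 0.62, limma adjusted p = 0.00762). Oxt, the oxytocin gene, was at -1.20 and -0.40 in the naive pools, -0.55 and 0.06 in the sham pools, 1.48 and 6.36 in the surviving pools, and 4.04 and 0.93 in the dying pools. Surviving replicate 2 held the highest value of both genes. Pmch, the gene of melanin-concentrating hormone, was above background on 3 arrays, and its values of 2.04 in surviving replicate 2 and 2.35 in dying replicate 1 stood above a range of -3.08 to -0.05 on the other 6. Nts, the neurotensin gene, ran from -2.73 in surviving replicate 1 to 5.61 in naive replicate 2, with replicates of all 4 groups more than 2 log2 units apart.

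Vgf, a granin-like precursor gene, lay between 8.77 and 9.65 on the 8 arrays and was called in 0 comparisons. Pomc, the precursor gene of melanocortins and beta-endorphin, was at 4.34 and 4.10 on the dying arrays and between 3.05 and 3.65 on the other 6, also with 0 calls. Pnoc, the nociceptin precursor gene, lay between 4.57 and 6.01 with 0 calls, and the somatostatin receptor gene Sstr3 between 7.55 and 8.96.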
